A study of Homo sapiens with 4 samples.

Results

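Aminoacyl-tRNA synthetases load each amino acid onto its transfer RNA, the step that gives the ribosome its substrates. Human cells use separate nuclear genes for most enzymes of the cytosol, most of whose symbols end in 1, and of the mitochondrion, whose symbols end in 2, while GARS1 and KARS1 serve both places from a single gene. The transcription factor ATF4 is known to induce many of the cytosolic genes when amino acids run short. Here 35 of the 18132 genes of the array were described across 4 arrays, 19 for cytosolic and 16 for mitochondrial enzymes. They were taken as all probe sets of the deposited table that name exactly 1 gene, that gene being on the list, which gave 88 of the 44988 probe sets naming a single gene. Each of the 35 genes was found, 27 of them with more than 1 probe set, and 4 probe sets that name a member together with another gene were left out. The aspartyl enzymes were not analysed here.

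On 2 arrays the RNA came from LNCaP, an androgen-responsive line of prostate cancer, that had received exosomes (small secreted vesicles) of PC-3, an androgen-independent line. On the other 2 it came from LNCaP that had received PBS, a buffer, labelled as normal LNCaP with no agent. Both were kept in RPMI medium with fetal bovine serum, and the labels used here give neither dose nor exposure time. Neither the source of each array in a group nor its culture is stated, so the spread between arrays may be technical alone.

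Values were the authors' normalized intensities on a linear scale, with a median per array of 111.3 and 110.8 after exosomes and 112.4 and 112.0 after PBS. The number of arrays limits the precision. The prostate markers KLK3, KLK2, TMPRSS2 and HOXB13 ran from 3240 to 14526, while the labels' text on RNA extraction speaks of brain cortex. Of 6 brain markers, AQP4 and SYT1 lay between 21.2 and 36.5, and the highest was MBP at up to 868. The 6 summed to 1467 to 1489 after exosomes and 1337 to 1402 after PBS. Most of this sum was MBP, 867 and 868 after exosomes and 764 and 764 after PBS. MBP, GFAP and AQP4 had log2 fold changes of 0.18, 0.12 and 0.11, while SNAP25, SYT1 and SLC17A7 had -0.05, -0.08 and -0.12. None of the 6 passed the limma test, and whether this bears on the results was not tested. Spike-in RNAs with poly-A tails, which serve as processing controls, stood 0.14 higher on the log2 scale after exosomes. With each array centred on them, all genes together had a median log2 fold change of -0.15, against -0.01 on the deposited scale.

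The comparison asks whether exosomes from PC-3 moved the synthetase genes of LNCaP, and whether cytosolic and mitochondrial enzymes moved alike. CARS1, SARS1 and GARS1, which charge cysteine, serine and glycine, rose after exosomes, by 1.31-fold, 1.27-fold and 1.24-fold. They were 3 of 19 cytosolic genes past the threshold, a limma adjusted p under 0.05 over all 18132 genes, and 0 of 19 fell. Of the 16 mitochondrial genes 0 rose and 0 fell, and none had an unadjusted p under 0.05 in the limma fit. Over all genes 0.7% rose and 0.188% fell. With arrays centred on the spike-ins 0 of the 35 genes passed. On that scale the log2 fold changes of CARS1, SARS1 and GARS1 were 0.25, 0.20 and 0.17 (SE 0.083, 0.084 and 0.093). Their limma adjusted p there was 0.077, 0.155 and 0.259.

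CARS1, the cysteinyl-tRNA synthetase, measured 1389 and 1373 on the exosome arrays and 1089 and 1014 on the PBS arrays. Both exosome values lay above both PBS values, and the log2 fold change was 0.39 (SE 0.053, limma adjusted p = 0.013). SARS1, the seryl-tRNA synthetase, measured 2151 and 2177 on the exosome arrays and 1756 and 1655 on the PBS arrays, again without overlap. The log2 fold change of SARS1 was 0.34 (SE 0.047, limma adjusted p = 0.013). GARS1, the glycyl-tRNA synthetase of cytosol and mitochondria, measured 5329 and 5427 after exosomes and 4514 and 4179 after PBS. GARS1 had a log2 fold change of 0.31 (SE 0.045, limma adjusted p = 0.019). In each of the 3 genes the exosome arrays lay close together, and PBS replicate 2 was the lowest of the 4 arrays.

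The calls depended on the variance model. Without a mean-variance trend in eBayes the limma adjusted p of CARS1, SARS1 and GARS1 was 0.146, 0.183 and 0.252, and with the replicate number as a block 0.164, 0.175 and 0.191, at the same fold changes. CARS1, SARS1 and GARS1 all stayed past the threshold without PBS replicate 1. All 3 were lost without exosome replicate 1, exosome replicate 2 or PBS replicate 2. Each of these fits has 1 residual degree of freedom, and the lone array is assumed to vary like the other group, whose spread alone enters. Over those 4 fits their log2 fold changes ran from 0.34 to 0.45, from 0.30 to 0.39 and from 0.25 to 0.36. With 2 arrays in each group the smallest two-sided p of an exact permutation test is 0.333, so the calls rest on the variance that limma shares between genes. Each array averages a culture, so fewer cells of a kind and less RNA per cell cannot be told apart.

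**Figure D1:**
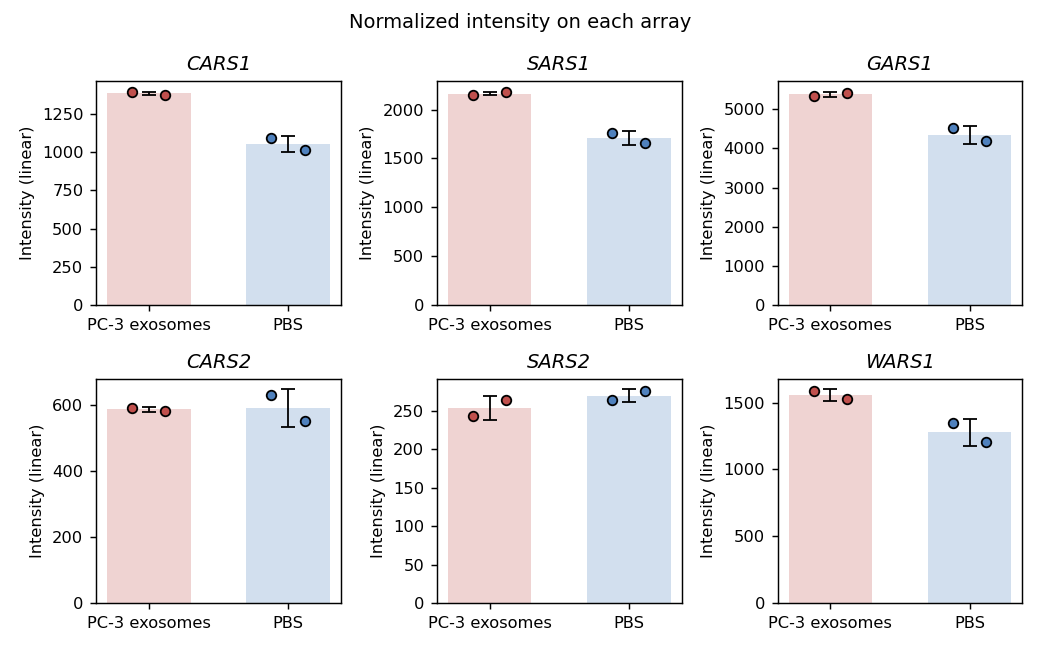
Normalized intensity (linear, vertical axes from 0) of 6 genes on the 2 exosome arrays (red) and the 2 PBS arrays (blue). Bars are means, whiskers SDs and points single arrays. CARS1, SARS1, GARS1 and WARS1 lie higher on both exosome arrays, while the groups overlap for CARS2 and SARS2.

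The promoters of the called genes are shown because the members that rose can be compared there, at the letters of the amino acid response element. RefSeq windows (GRCh38.p14) of 250 bases before and 50 bases from the annotated start were read 5′ to 3′ on the gene's strand. Capitals mark a match to TGATGNAA on either strand, the core of the element bound by ATF and C/EBP factors. For CARS1 and GARS1 the window with the match is shown, and neither window of SARS1 held one.
CARS1, GRCh38.p14 chr11:3057374-3057673, minus strand: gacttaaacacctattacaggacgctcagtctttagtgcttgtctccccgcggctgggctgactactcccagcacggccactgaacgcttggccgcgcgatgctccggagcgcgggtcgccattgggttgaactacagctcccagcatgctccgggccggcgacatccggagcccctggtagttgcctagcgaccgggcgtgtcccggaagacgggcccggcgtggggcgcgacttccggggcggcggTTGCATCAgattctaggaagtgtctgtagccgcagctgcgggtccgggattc
SARS1, GRCh38.p14 chr1:109213643-109213942, plus strand: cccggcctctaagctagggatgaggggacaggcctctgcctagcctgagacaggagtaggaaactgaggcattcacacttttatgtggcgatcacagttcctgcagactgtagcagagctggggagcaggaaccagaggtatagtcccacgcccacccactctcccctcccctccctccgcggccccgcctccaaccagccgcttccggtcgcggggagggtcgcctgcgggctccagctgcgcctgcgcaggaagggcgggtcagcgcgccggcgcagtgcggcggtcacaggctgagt
GARS1, GRCh38.p14 chr7:30594628-30594927, plus strand: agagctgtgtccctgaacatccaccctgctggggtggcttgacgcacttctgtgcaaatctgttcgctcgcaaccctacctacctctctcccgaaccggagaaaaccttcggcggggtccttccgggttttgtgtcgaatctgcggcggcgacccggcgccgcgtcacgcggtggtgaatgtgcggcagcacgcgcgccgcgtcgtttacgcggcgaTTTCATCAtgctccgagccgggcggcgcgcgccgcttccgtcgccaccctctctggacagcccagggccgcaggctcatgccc

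The mitochondrial counterparts of CARS1 and SARS1 did not pass the test. CARS2 measured 592 and 582 after exosomes and 631 and 551 after PBS, so its exosome arrays lay between the PBS arrays. Its log2 fold change was -0.01 (95% interval -0.17 to 0.16, limma adjusted p = 0.993). SARS2 measured 243 and 265 after exosomes and 264 and 276 after PBS. These overlapped, with a log2 fold change of -0.09 (95% interval -0.25 to 0.08, limma adjusted p = 0.740). GARS1 has no mitochondrial counterpart. KARS1, the lysyl enzyme that likewise serves both places, measured 4676 and 4692 after exosomes and 4435 and 4548 after PBS, with a log2 fold change of 0.06 (adjusted p = 0.611 in the limma fit).

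Below the called genes, WARS1 and MARS1 came closest to the threshold and are given although they missed it. WARS1, the tryptophanyl enzyme, known also as a gene that interferon gamma induces, measured 1587 and 1525 after exosomes and 1347 and 1207 after PBS. Its log2 fold change was 0.29 (SE 0.060, limma adjusted p = 0.080), and over the alternatives its adjusted p ran from 0.020 to 0.438. MARS1, the methionyl enzyme that also charges the initiator transfer RNA, measured 1274 and 1283 after exosomes and 1103 and 1102 after PBS. MARS1 had a log2 fold change of 0.21 (SE 0.047, limma adjusted p = 0.097), and the arrays of its brightest probe set did not overlap. Over the alternatives its log2 fold change ran from 0.07 to 0.23, and over its 5 probe sets from 0.05 to 0.28. With the mean of the probe sets MARS1 stood at 0.17, below its mitochondrial counterpart MARS2 at 0.22.

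EPRS1, which charges glutamate and proline from a single chain, had a log2 fold change of 0.15, NARS1, the asparaginyl enzyme, 0.14 and IARS1, the isoleucyl enzyme, 0.14. YARS1, for tyrosine, had 0.12, LARS1, for leucine, 0.12, HARS1, for histidine, 0.10, TARS1, for threonine, 0.08 and AARS1, for alanine, 0.08. Their limma adjusted p ran from 0.161 for IARS1 to 0.634 for AARS1. In each of these 8 genes both exosome arrays lay above both PBS arrays on the deposited scale, as in 17.8% of all genes. With arrays centred on the spike-ins EPRS1 and NARS1 stood at 0.01 and 0.003, and the other 6 turned sign, from -0.004 for IARS1 to -0.06 for AARS1. NARS1 measured 7247 and 7582 after exosomes and 6739 and 6689 after PBS, and IARS1 measured 6782 and 6916 after exosomes and 6259 and 6208 after PBS.

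The remaining cytosolic genes lay close to 0. QARS1, the glutaminyl enzyme, had a log2 fold change of 0.01 and RARS1, the arginyl enzyme, -0.02. VARS1, the valyl enzyme, measured 1297 and 1262 after exosomes and 1326 and 1243 after PBS, at -0.01 (95% interval -0.12 to 0.11). FARSA and FARSB, the catalytic alpha and the beta subunit of the phenylalanyl enzyme, stood at -0.01 and -0.05. FARSA measured 1280 and 1263 after exosomes and 1281 and 1277 after PBS, with a 95% interval of -0.11 to 0.10. These 5 were the cytosolic genes whose arrays overlapped between the groups.

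For the cytosolic genes the median log2 fold change was 0.12, and -0.02 with arrays centred on the spike-ins. For the mitochondrial genes it was 0.01, -0.005 after quantile normalization and -0.13 on the spike-in scale. Over all genes the median was -0.01, and -0.15 on the spike-in scale. In 14 of 19 cytosolic genes both exosome arrays lay above both PBS arrays, and in 0 below. Among mitochondrial genes this held for 5 of 16 above and 2 below, and over all genes for 17.8% above and 21.9% below. At an unadjusted p under 0.05 in the limma fit 10 of 19 cytosolic genes were higher and 0 lower, against 5.76% and 5.16% of all genes.

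The compartments differed in brightness as well. The cytosolic members stood at percentiles 83.9 to 98.3 of all genes by mean level, and the mitochondrial ones at percentiles 52.0 to 89.9. Standard errors ran from 0.035 to 0.072 for cytosolic and from 0.047 to 0.080 for mitochondrial genes, against a median of 0.078 over all genes. Among the 2924 genes at least as bright as the dimmest cytosolic member, AARS1, the median log2 fold change was 0.001. Of them 1.74% rose, and in 24.2% both exosome arrays lay above both PBS arrays.

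**Figure D2:**
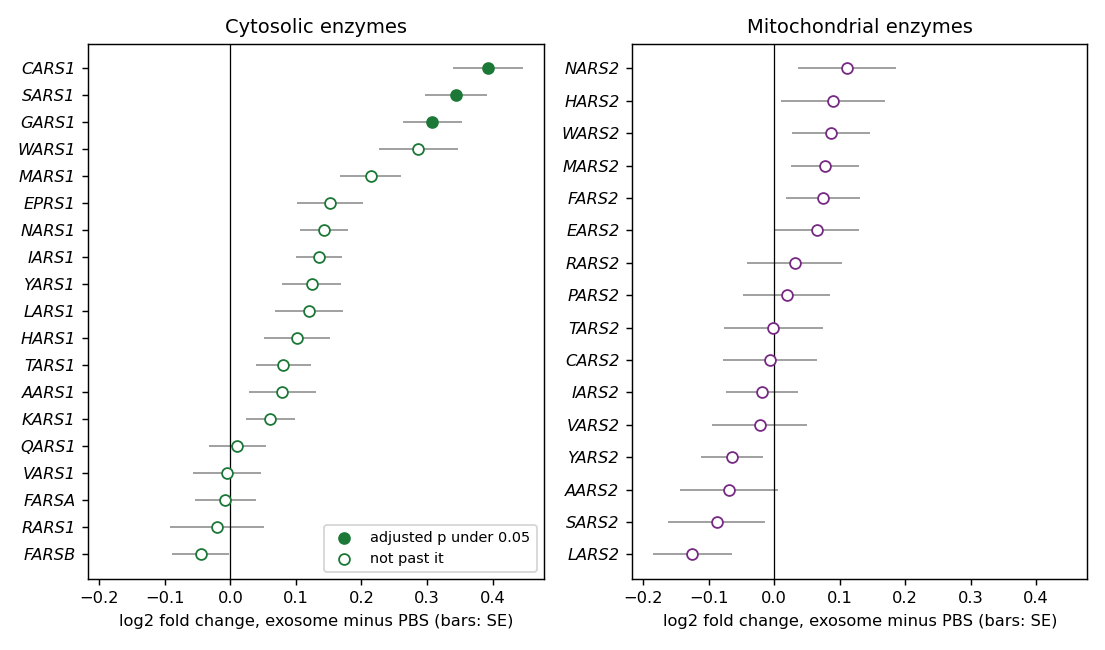
Log2 fold change (exosome minus PBS, horizontal axis) of each gene with its SE, cytosolic on the left and mitochondrial on the right. Filled points, CARS1, SARS1 and GARS1, passed an adjusted p under 0.05. The cytosolic genes reach from -0.05 to 0.39 and the mitochondrial genes from -0.12 to 0.11, and centring on the spike-ins would lower every point by 0.14.

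Averaged over the set, the levels were also taken as each array's deviation from the mean of the 4 arrays. The 19 cytosolic genes stood at 0.05 and 0.08 on the exosome arrays and -0.03 and -0.10 on the PBS arrays, in log2 units. The 16 mitochondrial genes stood at 0.01 and -0.002 on the exosome arrays and 0.03 and -0.04 on the PBS arrays, so these groups overlapped. Without PBS replicate 2 the cytosolic median log2 fold change was 0.079 and the mitochondrial one -0.04. PBS replicate 2 was the lowest array in both sets. It also had the lowest spike-in level, 6.77 against 6.90 to 7.02 on the other arrays in log2 units. Its ratio of the 3′ to the 5′ actin probe set, a check of RNA integrity, was the highest, at 7.17. That ratio was 5.74 on PBS replicate 1, and 6.82 and 5.39 on the exosome arrays. The part of the spike-in level or of this ratio in the result was not tested.

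A single scaling factor per array moves both sets alike, so it leaves the difference between them nearly unchanged. This need not hold for a step that depends on intensity, as the cytosolic genes were brighter. After quantile normalization the cytosolic median log2 fold change was 0.11 and the mitochondrial one -0.005, against 0.12 and 0.01. The part of such a step in the deposited values was not tested. Cytosolic minus mitochondrial was 0.04 and 0.08 on the exosome arrays and -0.06 and -0.06 on the PBS arrays. Both exosome arrays lay above both PBS arrays, by 0.12 on average. No test of this difference was run, as the members were chosen with results of these arrays known.

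**Figure D3:**
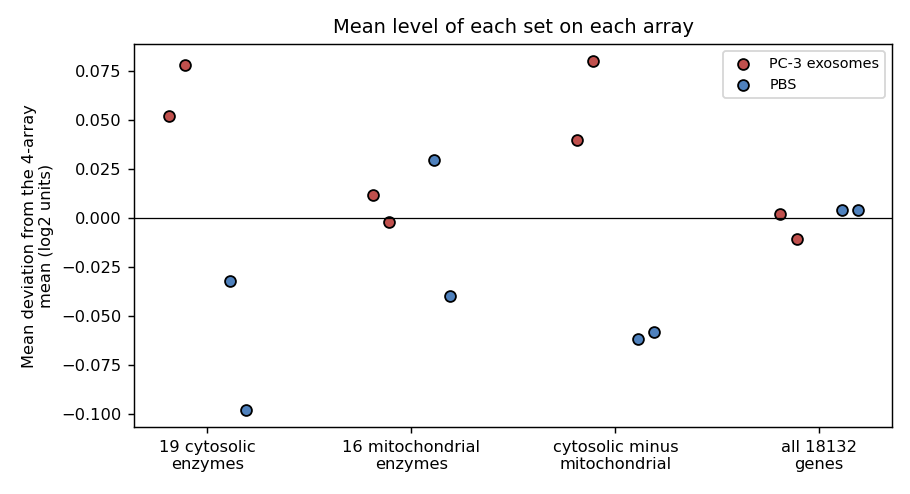
Mean deviation from the mean of the 4 arrays (log2 units, vertical axis) for 4 quantities, on the exosome arrays (red) and the PBS arrays (blue), 1 point per array. The cytosolic points of the exosome arrays, 0.05 and 0.08, lie above those of the PBS arrays, the mitochondrial points overlap, and all genes stay between -0.01 and 0.004.

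Set side by side for the same amino acid, the cytosolic gene had the larger log2 fold change in 14 of 17 pairs. The difference between the partners ran from -0.12 to 0.43, with a median of 0.13. It was largest for SARS1 and SARS2 at 0.43, for CARS1 and CARS2 at 0.40 and for LARS1 and LARS2 at 0.24. In 9 of 17 pairs the difference between the partners was larger on both exosome arrays than on both PBS arrays, in 2 it was smaller on both, and in 6 it overlapped. The 2 pairs below were FARSA and FARSB with FARS2, which share a partner. EPRS1 enters 2 pairs as well, so the 17 are not independent. No share over pairs of other genes was computed to set beside these counts. Of all single genes, 17.8% lay higher on both exosome arrays and 21.9% lower. These shares count levels of single genes, not differences between partners.

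HARS1 and HARS2, the histidyl pair, differed least, by 0.01. HARS2 measured 459 and 422 after exosomes and 442 and 387 after PBS, at a log2 fold change of 0.09, while HARS1 measured 2180 and 2235 after exosomes and 2138 and 1980 after PBS, at 0.10. In RefSeq these genes run away from each other on chromosome 5 of GRCh38.p14, with 84 bases between their annotated starts. Neither gene passed the test.

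**Figure D4:**
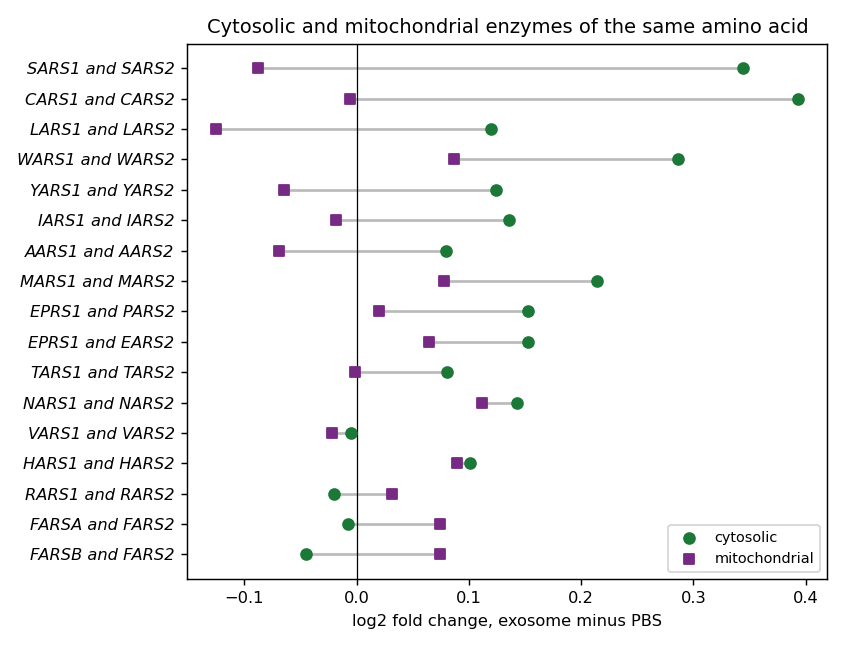
Log2 fold change (exosome minus PBS, horizontal axis) of the cytosolic (green circles) and mitochondrial (purple squares) gene of each of 17 pairs, ordered by their difference. The cytosolic gene lies to the right in 14 pairs, most for SARS1 and SARS2, and to the left for RARS1 and for FARSA and FARSB.

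Among the mitochondrial genes LARS2 and NARS2 had the largest differences. LARS2, the mitochondrial leucyl enzyme, measured 553 and 533 after exosomes and 610 and 575 after PBS, below on both exosome arrays. Its log2 fold change was -0.12 (SE 0.060, limma adjusted p = 0.5003). NARS2, the asparaginyl enzyme, measured 510 and 508 after exosomes and 507 and 438 after PBS, at 0.11 (SE 0.075, limma adjusted p = 0.655). The exosome values of NARS2 lay barely above PBS replicate 1, and without PBS replicate 2 its log2 fold change was 0.01.

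TARS2, the threonyl enzyme, had the smallest difference of the mitochondrial set, at 317 and 301 after exosomes and 326 and 293 after PBS. Its log2 fold change was -0.001 (95% interval -0.17 to 0.17). Both exosome arrays lay above both PBS arrays in WARS2, MARS2, FARS2 and EARS2, for tryptophan, methionine, phenylalanine and glutamate, at log2 fold changes of 0.06 to 0.09. RARS2, for arginine, and PARS2, for proline, stood at 0.03 and 0.02. IARS2, VARS2, YARS2 and AARS2, for isoleucine, valine, tyrosine and alanine, stood at -0.02, -0.02, -0.06 and -0.07. Of these 4 only YARS2 lay lower on both exosome arrays, at 1206 and 1211, against 1261 and 1266 after PBS.

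Within the cytosol 7 members, EPRS1, IARS1, KARS1, LARS1, MARS1, QARS1 and RARS1, belong to the multi-synthetase complex, a large assembly held together by scaffold proteins. Of these 0 passed the limma test, 4 were higher at an unadjusted p under 0.05 and 0 lower, and the median log2 fold change was 0.12. Of the other 12 cytosolic genes 3 rose, 6 were higher at an unadjusted p under 0.05, and the median was 0.11. Over all genes 0.7% rose and 5.76% were higher at an unadjusted p under 0.05, and among the 2924 genes as bright as the cytosolic members 1.74% and 10.3%. The medians on the spike-in scale are lower by 0.14. Synthetases also fall into 2 structural classes with unrelated catalytic folds. Among cytosolic genes the 9 of class I had a median of 0.12 with 1 that rose (CARS1), and the 9 of class II had 0.08 with 2 that rose (SARS1 and GARS1). EPRS1 joins both classes.

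Where a gene had several probe sets, they mostly lay on the same side of 0. Among cytosolic genes this held for 13 of 16 with more than 1 probe set, 12 above and 1 below (VARS1), and among mitochondrial genes for 8 of 11, 5 above and 3 below. The 3 probe sets of CARS1 had log2 fold changes of 0.31, 0.39 and 0.42, and the 2 of GARS1 had 0.30 and 0.31. SARS1 had a single probe set. The 4 of WARS1 ran from -0.05 to 0.39, and the one below 0 was the dimmest, at 17.7 and 18.97 after exosomes and 20.0 and 17.9 after PBS. MARS2 varied more than its brightest probe set shows, from 0.08 to 0.32 over 3 probe sets, and EARS2 ran from -0.05 to 0.27 over 4.

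When every probe set was tested, 1 of 88 rose and 0 fell, against 0.238% and 0.02% of all 44988. It was the brightest of CARS1 (limma adjusted p = 0.049), while SARS1 missed with 0.053 and GARS1 with 0.059 and 0.065. Over the probe sets 32 of 53 cytosolic and 12 of 35 mitochondrial ones lay higher on both exosome arrays, against 17.2% of all, and 2 cytosolic and 3 mitochondrial ones lay lower on both, against 20.5%. At an unadjusted p under 0.05 in the limma fit 23 cytosolic and 3 mitochondrial probe sets were higher and 0 were lower, against 4.73% and 4.14% of all. Probe sets of a gene read the same RNA and are not replicates.

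**Figure D5:**
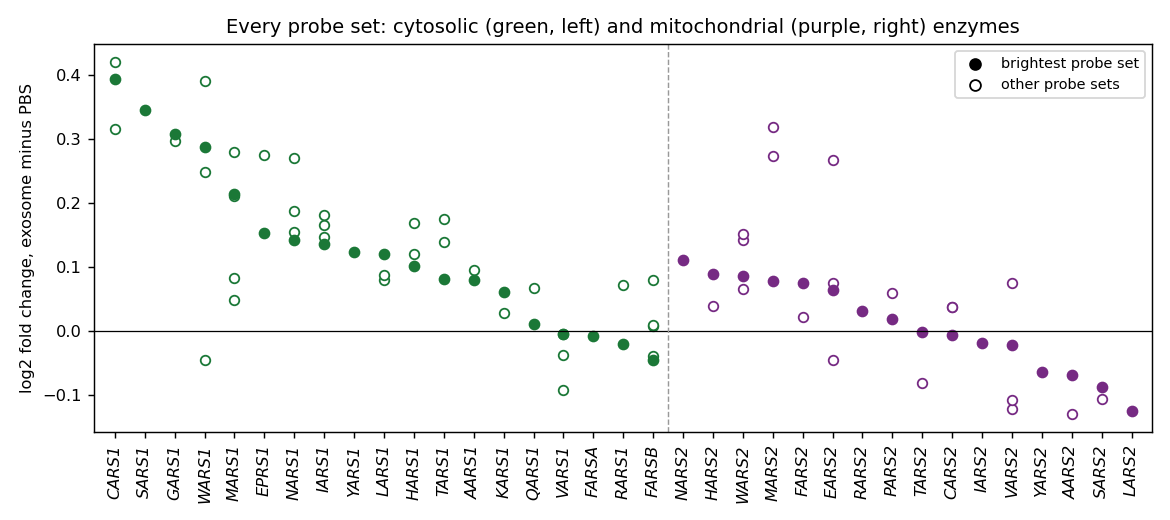
Log2 fold change (exosome minus PBS, vertical axis) of all 88 probe sets, by gene, cytosolic (green) left of the dashed line and mitochondrial (purple) right of it. Filled points are the brightest probe set of a gene, which stood for it in the gene test. The CARS1 probe sets lie at 0.31 to 0.42 and the VARS1 probe sets below 0, while WARS1, EARS2 and VARS2 lie on both sides.

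The promoter windows matched 30 of the 35 genes, 16 cytosolic and 14 mitochondrial. AARS2, LARS1, VARS1, VARS2 and YARS1 were not analysed here for promoters. TGATGNAA, on either strand, was found in 7 of 16 cytosolic genes (43.8%), AARS1, CARS1, GARS1, IARS1, MARS1, NARS1 and TARS1, and in 1 of 14 mitochondrial genes (7.14%), YARS2. Of all 27305 genes with a window, 4.46% held it. The 9-letter TGATGCAAT, which contains the shorter motif, was found in TARS1, in 0 of 14 mitochondrial genes and in 0.293% of all genes.

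The matches of the genes not shown above are printed within 60 bases, so that the shared letters can be compared. Capitals mark the match to TGATGNAA, which reads TTNCATCA where it lies on the opposite strand.
AARS1, GRCh38.p14 chr16:70289660-70289719, minus strand: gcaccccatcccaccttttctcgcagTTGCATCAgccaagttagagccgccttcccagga
IARS1, GRCh38.p14 chr9:92293677-92293736, minus strand: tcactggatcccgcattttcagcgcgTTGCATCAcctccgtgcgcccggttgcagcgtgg
MARS1, GRCh38.p14 chr12:57488038-57488097, plus strand: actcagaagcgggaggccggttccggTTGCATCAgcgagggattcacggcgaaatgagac
NARS1, GRCh38.p14 chr18:57621789-57621848, minus strand: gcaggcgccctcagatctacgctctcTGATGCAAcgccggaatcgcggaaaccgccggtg
TARS1, GRCh38.p14 chr5:33440941-33441000, plus strand: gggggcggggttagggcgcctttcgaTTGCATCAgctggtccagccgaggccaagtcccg
YARS2, GRCh38.p14 chr12:32756061-32756120, minus strand: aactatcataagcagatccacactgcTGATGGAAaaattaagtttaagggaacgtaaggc

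Of the 7 cytosolic genes with a match, 6 carry TGATGCAA, a form singled out after the matches were seen and held by 1.08% of all genes. GARS1 carries the same element with another base at the free position. In CARS1, MARS1 and IARS1 the match began 2, 4 and 13 bases before the annotated start, in GARS1 33 and in AARS1 187. In TARS1 and NARS1 it began 2 and 14 bases after the start. These are matches of letters, not sites of binding.

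For the 7 cytosolic genes with a match the median log2 fold change was 0.14, from 0.08 to 0.39, and in 7 of 7 both exosome arrays lay above both PBS arrays. The 9 with a window but no match had 0.06, from -0.05 to 0.34, and this held in 5 of 9. It held in 17.8% of all genes and in 24.2% of those as bright as the cytosolic members. SARS1 and WARS1, at 0.34 and 0.29, are among the 9, and WARS1 did not pass the limma test. FARSA, FARSB, QARS1 and RARS1, whose arrays overlapped, were also without a match. On the spike-in scale both medians are lower by 0.14, and no test was run between these sets.

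Other genes of transfer RNA charging did not pass the test. Of 18 listed 15 were measured, and their median log2 fold change was 0.05. In the limma fit 0 rose and 0 fell, against 0.7% and 0.188% of all genes. At an unadjusted p under 0.05 in that fit PSTK was higher and MTFMT lower. This was 6.67% of the 15 in each direction, close to the 5.76% and 5.16% of all genes. In 7 of the 15 (46.7%) both exosome arrays lay above both PBS arrays, and in 1 below, against 17.8% and 21.9% of all genes. The log2 fold change was above 0 in 12 of the 15 (80%), against 44% of all genes. AIMP2, EEF1E1 and AARSD1 had no probe set of their own and were not analysed here. MTFMT, which adds the formyl group to the mitochondrial initiator, measured 674 and 691 after exosomes and 778 and 733 after PBS. Its log2 fold change was -0.15 (limma adjusted p = 0.383), and with arrays centred on the spike-ins it passed the threshold as lower, at -0.29 (limma adjusted p = 0.049). With the mean of its probe sets in place of the brightest, MTFMT stood at 0.01 (limma adjusted p = 0.983), so its direction turned. PSTK, a kinase on the path to selenocysteine, measured 1519 and 1468 after exosomes and 1428 and 1304 after PBS, at 0.13 (adjusted p = 0.446 by limma). AIMP1, a scaffold of the multi-synthetase complex, stood at 0.01, and TUFM, which delivers charged transfer RNA to the mitochondrial ribosome, at 0.06.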

How the data were processed

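RNA of LNCaP was hybridised to Affymetrix arrays, 2 of cells with PC-3 exosomes and 2 of cells with PBS. The deposited values are linear intensities, 1 for each probe set, which the authors had normalized. MAS5 and RMA are named, without role, order or version, per the submitters' processing notes. The genome build is not given in the sources used here. Groups and replicate numbers came from the sample titles.

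Genes were named from GEO's platform annotation, and 35 of 35 members matched a RefSeq gene ID. Each of 18132 genes was represented by its brightest probe set by mean log2 value. A pseudocount of 1 was added before taking log2, and folds are on that scale. limma 3.58.1 in R 4.3.3 (lmFit, eBayes with a trend) was fitted over all genes, and again over all 44988 probe sets that name 1 gene, with Benjamini-Hochberg adjustment over the whole table. The fit has 2 residual and 6.99 prior degrees of freedom. Sets were described by counts and medians, with no test over a set.

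Members, lists, motifs and alternatives were chosen with earlier results of these data known. All members are accounted for. Values on each array are given for members past the threshold, their counterparts, and the 2 largest and 2 smallest differences in each compartment, with others added where the text says so or for comparison. Of the other charging genes the 2 with the smallest p were given on each array, and AIMP1 and TUFM were added by log2 fold change. Alternatives covered normalization, the pseudocount, filters on low values, the choice of probe set, the variance model, the threshold, the replicate number as a block, and each array left out. Same-numbered arrays did not deviate together (r = -0.04 across genes, which are not independent), so the block is not the reported fit. Promoters were RefSeq windows of GRCh38.p14. Figures were drawn with matplotlib 3.10.9.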

Additional observations from a re-analysis of the deposited data

How the results depend on the processing

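Of the 35 members 3 rose on the deposited scale, all listed as cytosolic, against 0.7% of all genes. Among them GARS1 serves the mitochondrion as well. The shares of all genes and probe sets called under the alternatives are not given here. A change in a member count therefore cannot be set against the whole table. The count was 3 with a pseudocount of 16, robust eBayes or the mean of a gene's probe sets, and 4, with WARS1 added, after quantile normalization, centring on array medians or restriction to genes at or above the 30th percentile. It was 5 among genes at or above the median level and at an adjusted p under 0.1, with WARS1 and MARS1 added. It was 0 with arrays centred on the poly-A spike-ins, 0 by eBayes without a trend, and 0 to 3 with an array left out. In the fit with the replicate block the count was 0. The cytosolic count moved the same way, and 1 of 53 cytosolic probe sets passed when every probe set was tested. The mitochondrial count was 0 under all of these settings. The count of member probe sets, 1, became 5 after quantile normalization, 4 centred on array medians, 6 and 5 with the filters at the median and the 30th percentile, and 5 at an adjusted p under 0.1. It was 0 with a pseudocount of 16, robust eBayes, no trend, the spike-ins, the block or any array left out. The other genes of transfer RNA charging had 0 calls except 1, MTFMT, on the spike-in scale. The cytosolic median log2 fold change was -0.020 on that scale and 0.079 to 0.14 with an array left out. The mitochondrial median was -0.13 on it and -0.040 to 0.055 with an array left out. The cytosolic gene had the larger log2 fold change in 14 of 17 pairs under each scaling, in 13 with the mean of the probe sets, and in 11 to 15 with an array left out. The cause of these differences was not tested. The sign turned for 16 of the 35 members on the spike-in scale, for 4 centred on array medians, for 3 with the mean of the probe sets, and for 2 to 6 with an array left out. CARS1, SARS1 and GARS1 were not among them. Signal over background limits the dim probe sets, such as those of WARS1 and WARS2 near 20.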
